A study of Homo sapiens with 95 samples.

Results

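Cigarette smoke condensate (CSC), the tar fraction of cigarette smoke dissolved in dimethyl sulfoxide (DMSO), was compared with DMSO alone in AALE cells, an immortalized human bronchial epithelial line. The comparison used all 23 samples labelled CSC and all 24 labelled DMSO, 47 of the 95 samples of the series, with the genotype of the cells as a covariate. Genes with a mean count above 1 over these 47 samples entered the test, 14497 of the 27978 listed. With CSC, genes of xenobiotic metabolism, iron storage and glutathione synthesis, early growth response genes and small nucleolar RNAs rose, and genes of mitosis and several interferon-stimulated genes fell.

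Cells of 8 lines were plated in 24-well plates, grown to confluency and given 24 ug/ml CSC or the DMSO vehicle, and the remaining samples received 173 uM benzo[a]pyrene (BaP) or 490 uM of the nitrosamine NNK. FAT1 and CDKN2A had been knocked out with CRISPR, and cells given the Cas9-GFP plasmid without a guide RNA (GFP) were the control for both. NRF2 (the NFE2L2 gene), FGFR1, NRG1 and PIK3CA had been overexpressed, and cells with an empty vector carrying the HcRed reporter (HCRED) were the control for those 4. Each of the 32 combinations of line and treatment was represented by 3 samples, except FGFR1 with CSC, represented here by 2. Every sample is thus a derivative of 1 immortalized line, the length of exposure is not given in the sources used here, and the study calls the samples of a group biological replicates without saying, in the sources used here, whether they came from separate cultures, so that p-values measure the spread between these samples. In such bulk RNA, fewer cells of a kind and less RNA per cell cannot be told apart.

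The libraries were made by sparse full length (SFL) sequencing, in which ribosomal RNA is depleted and barcoded samples are pooled early, and they were shallow. Reads assigned to genes ranged from 485031 to 2116383 per sample, and 10204 genes averaged 10 counts or more. Levels below are given as CPM, the counts of a gene relative to all assigned reads of the sample (counts per 1000000), scaled with trimmed mean of M-values (TMM) factors, and may be compared between samples within a gene but not between genes. Each line carried its perturbation: FAT1 was at 92.5 to 126 CPM in the FAT1 knockout against 370 to 453 CPM in GFP cells, CDKN2A was below every GFP sample in its knockout, and NFE2L2, FGFR1, NRG1 and PIK3CA were each above every HCRED sample in their own lines. NRG1 was also above 50 CPM in 7 samples of other lines, all 3 NRF2 samples with CSC among them, with up to 370 CPM, and PIK3CA reached 188 CPM in the CDKN2A line. Without those 7 samples, an alternative chosen after seeing the data, 7563 genes passed the test in place of 8061. Markers of airway epithelium were read throughout: KRT5, KRT14, TP63, EPCAM, CDH1, KRT8 and KRT18 all passed the filter on counts. Of 7 markers of ciliated and secretory cells only CCDC39 passed it, of 6 fibroblast markers only COL1A1 and DCN, and of 7 markers of endothelium and blood cells only CD14.

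The aryl hydrocarbon receptor (AhR) is a ligand-activated transcription factor of the cytoplasm. When planar aromatic hydrocarbons such as those of tobacco tar bind it, it enters the nucleus, pairs with ARNT and activates genes with a GCGTG core in their regulatory DNA, first of all the cytochrome P450 genes that oxidize those compounds. NRF2 is held down by KEAP1 until electrophiles or oxidants modify KEAP1, whereupon it binds antioxidant response elements with small MAF proteins and activates genes of glutathione synthesis, quinone reduction and iron storage.

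At an adjusted p under 0.05, 8061 genes (55.6%) differed between CSC and DMSO by limma-voom with genotype as covariate. Of these 3943 (27.2%) were higher and 4118 (28.4%) lower with CSC. Changes over 2-fold were far less even, with 251 genes higher (1.73%) and 25 lower (0.172%), and among genes averaging 10 counts or more the numbers were 99 and 5. By biotype, the genes over 2-fold higher were 197 protein-coding genes, 22 small nucleolar RNAs, 17 long noncoding RNAs and 1 microRNA, with the rest in other classes or not matched to the annotation. Of the 251 risers 200 had the same sign in each of the 8 lines, as had 17 of the 25 fallers. The threshold had no gap around it: LINC02535 was just inside at a log2 fold change of 1.003 and GPAT3 just outside at 0.9997, while COL21A1 was just inside on the lower side at -1.003 and ADCY5 just outside at -0.99. The median over all genes tested was -0.01 on the log2 scale, and +0.03 when libraries were scaled to total counts alone.

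All 23 CSC samples were above all 24 DMSO samples for 28 genes (0.193%), and all were below for 6 (0.0414%). The 28 included CYP1A1, CYP1B1 and TIPARP of the AhR response, FOS and JUNB of the AP-1 factors, the amino acid transporter subunits SLC7A5 and SLC3A2, the lipid regulator SREBF1, the small MAF gene MAFG and the noncoding RNAs RMRP and SNORD68. The 6 lower genes were ANP32E, a histone chaperone, at -0.74, RBBP8, a factor of DNA end resection, at -0.65, and the nuclear RNA- or DNA-binding protein genes ZNF638, MATR3, HNRNPU and HNRNPH1, at -0.55, -0.55, -0.46 and -0.37 on the log2 scale. These 34 genes were named after their values were seen. The 6 lower genes had a GC content of 36.8 to 44.5%. After the GC correction, described further on, they were at -0.45, -0.47, -0.30, -0.31, -0.22 and -0.27, in the order given. Of the higher genes JUNB went from 1.24 to 0.81 with it, while CYP1B1 went from 3.37 to 3.46 and TIPARP from 1.61 to 1.71.

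All 9 AhR target genes that could be tested were higher with CSC, against 27.2% of all genes. Of these 6 rose over 2-fold, against 1.73%, and the median log2 fold change was 1.61. CYP1A2, the liver form, was too low to test. The upstream sequence is shown for the 3 targets with the largest rises among those with a promoter entry, which CYP1B1 and ALDH3A1 lacked. The AhR core that the family is known for is marked. The sequences are the 250 bases before the annotated RefSeq start in GRCh38.p14, 5′ to 3′ along the gene, and capitals mark GCGTG or, on the other strand, its reverse complement CACGC. CYP1A1 lies on the minus strand at chr15:74725529-74725778, AHRR (the first of 2 starts in the table) on the plus strand at chr5:321464-321713, and TIPARP (the first of 3) on the plus strand at chr3:156674340-156674589.
CYP1A1: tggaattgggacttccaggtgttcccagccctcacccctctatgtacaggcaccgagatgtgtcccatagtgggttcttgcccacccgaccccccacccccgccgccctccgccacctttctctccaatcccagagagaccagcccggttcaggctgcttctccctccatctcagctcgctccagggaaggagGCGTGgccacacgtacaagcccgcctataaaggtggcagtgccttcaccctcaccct
AHRR: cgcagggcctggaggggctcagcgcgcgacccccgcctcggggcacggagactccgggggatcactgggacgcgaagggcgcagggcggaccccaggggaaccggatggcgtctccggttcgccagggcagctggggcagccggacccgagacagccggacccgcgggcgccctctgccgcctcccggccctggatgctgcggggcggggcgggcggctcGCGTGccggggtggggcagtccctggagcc
TIPARP: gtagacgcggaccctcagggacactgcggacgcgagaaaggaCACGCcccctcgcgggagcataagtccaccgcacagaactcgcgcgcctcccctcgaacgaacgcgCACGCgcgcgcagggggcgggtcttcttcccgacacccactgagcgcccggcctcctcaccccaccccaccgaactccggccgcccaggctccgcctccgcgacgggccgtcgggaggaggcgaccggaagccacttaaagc

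The core began 57 bases before the start in CYP1A1, 30 in AHRR, and 208 and 142 in TIPARP. It is short, and 36.5% of the 35116 promoter windows in the table, each reaching from 250 bases before to 50 after a start, held it on either strand, as did at least 1 window of 40.6% of the genes. Among the tested AhR targets 7 had an entry in the table, and 6 of these held the core in a window (63.6% of their windows). The antioxidant genes described further on held it as often, in 11 of 13 genes and 68.8% of windows. The match is a description of the letters and not a binding site.

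CYP1A1 and CYP1B1 encode the P450 enzymes that activate and clear aromatic hydrocarbons, and showed the largest changes of all genes that averaged 10 counts or more. CYP1A1 (chr15:75011883-75017877 in the GRCh37 annotation) was at 0 to 18.4 CPM with DMSO, with a median of 7.58, and at 122 to 797 CPM with CSC, with a median of 380. The lowest CSC sample thus stood well above the highest DMSO sample, and the fitted log2 fold change was 5.54 ± 0.19 (SE; 46.5-fold; adjusted p = 6.1e-45). CYP1B1 (chr2:38294116-38337044) was at 43.2 to 114 CPM with DMSO, with a median of 68.5, and at 271 to 1179 CPM with CSC, with a median of 814. The groups did not overlap, and the log2 fold change was 3.37 ± 0.07 (10.3-fold; adjusted p = 5.4e-63). NQO1, a quinone reductase that answers to both AhR and NRF2, was at 54.3 to 189 CPM with DMSO and a median of 136, and at 153 to 475 CPM with CSC and a median of 351. All but 2 of the 23 CSC samples were above the highest DMSO sample, every CSC sample was above every DMSO sample of its own line, and the log2 fold change was 1.35 ± 0.04 (adjusted p = 2.0e-49).

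**Figure D1:**
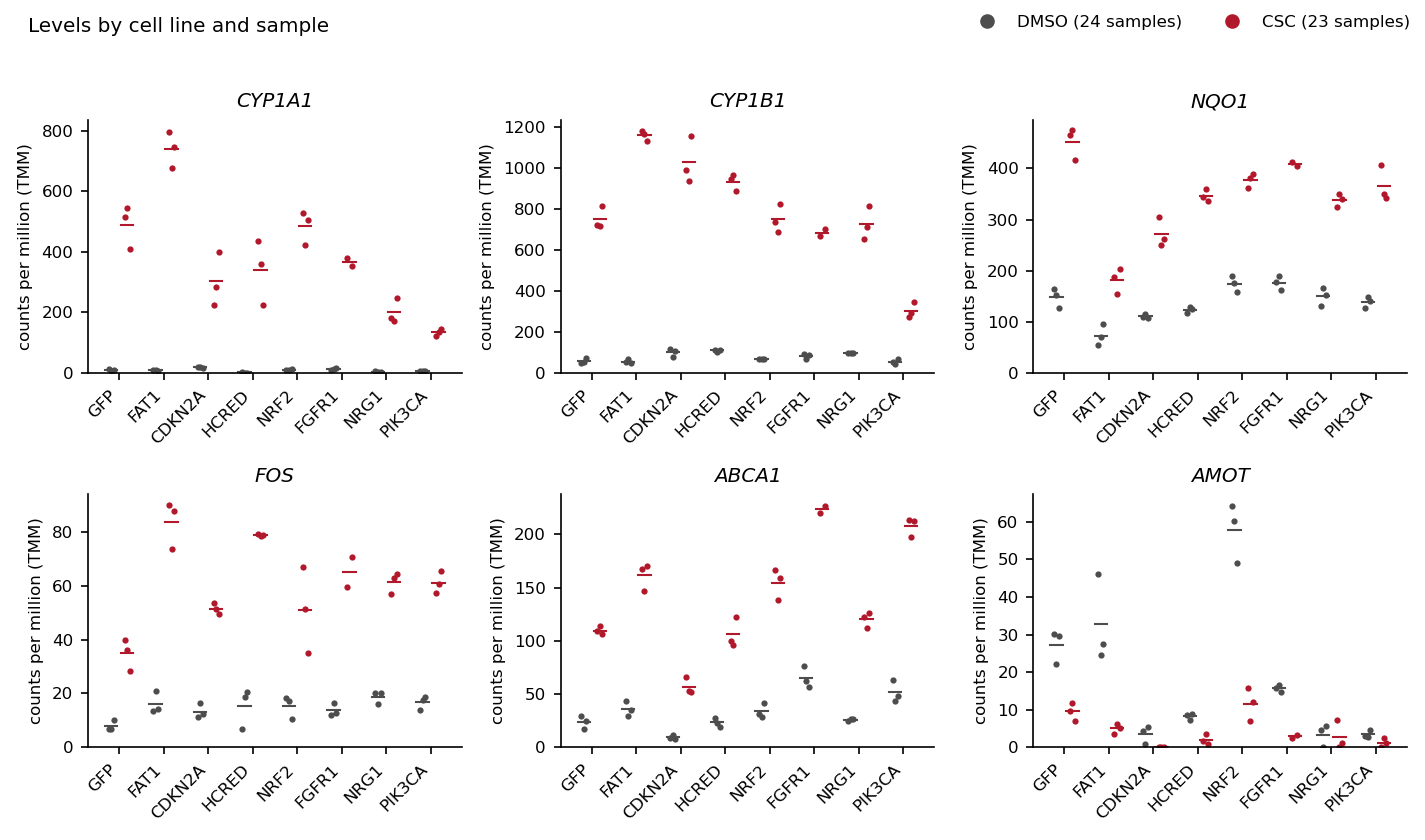
CPM of CYP1A1, CYP1B1, NQO1, FOS, ABCA1 and AMOT in each sample (dots) by line, for DMSO and CSC, with the group mean as a bar. CYP1A1, CYP1B1 and FOS have no CSC sample as low as the highest DMSO sample, while AMOT runs the other way, from a DMSO median of 11.8 to a CSC median of 3.36.

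The negative regulators of AhR moved with its enzymes. AHRR, the AhR repressor, rose from a DMSO median of 1.98 CPM (0 to 9.29) to a CSC median of 16.5 CPM (3.80 to 37.8), at a log2 fold change of 2.65 ± 0.21. TIPARP, an ADP-ribosyltransferase that also restrains AhR, was at 80.1 to 174 CPM with DMSO and 286 to 506 CPM with CSC, with no overlap, and its log2 fold change was 1.61 ± 0.04. ALDH3A1, which oxidizes aromatic aldehydes, was at 0.938 to 22.5 CPM with DMSO and 6.49 to 108 CPM with CSC, and rose by 2.02 ± 0.13. Its groups overlapped over all lines but not within any of the 8. SLC7A5, the light chain of the large neutral amino acid transporter, had log2 fold change 0.98 ± 0.03 with no overlap. UGT1A6, which conjugates phenols, had 0.89 ± 0.18 and CYP2S1 0.72 ± 0.15, and in both the groups overlapped. UGT1A6 shares exons with the other UGT1A genes, so that its counts are uncertain.

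The receptor itself did not follow its targets. AHR was at a median of 185 CPM with DMSO and 181 CPM with CSC (log2 fold change -0.07 ± 0.04, adjusted p = 0.12), and ARNT at 77.0 and 73.3 CPM (-0.07 ± 0.05). Of the 7 genes of the AhR complex 2 were higher, ARNT2 by 0.87, and PTGES3, HSP90AA1 and HSP90AB1 were lower, by -0.26, -0.29 and -0.30. The list median was -0.07, and turned to +0.01 once counts were corrected for GC content and exon length as described further on.

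The antioxidant genes under NRF2 rose widely and by smaller steps. Of the 21 genes 17 were higher, none was lower and 4 (CBR1, CBR3, UGDH and ABCC2) did not pass, against 27.2% higher among all genes, and 7 rose over 2-fold, against 1.73%. The list median was 0.79. The largest rise was that of FTL, the ferritin light chain that stores iron. FTL was at 140 to 649 CPM with DMSO, with a median of 267, and at 463 to 2059 CPM with CSC, with a median of 740. The groups overlapped over all samples but not within any line, and the log2 fold change was 1.71 ± 0.03 (adjusted p = 6.0e-64). The heavy chain FTH1 rose by 1.07 ± 0.03, from a median of 486 to 1001 CPM. Both ferritin genes have processed pseudogenes that can take or share reads.

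Other members with values were the growth inhibitor OSGIN1 at 1.44 ± 0.20, the export pump ABCC3 at 1.19 ± 0.07, the peroxidase GPX2 at 1.08 ± 0.19, heme oxygenase HMOX1 at 0.92 ± 0.20, the sulfiredoxin SRXN1 at 0.79 ± 0.05 and the thioredoxin reductase TXNRD1 at 0.79 ± 0.03. The 2 subunits of glutamate-cysteine ligase, which limits the synthesis of glutathione, were both higher: GCLC went from a median of 151 CPM (84.8 to 190) to 243 CPM (105 to 299) and GCLM from 109 CPM (81.7 to 135) to 158 CPM (119 to 188). Their log2 fold changes were 0.64 ± 0.05 and 0.53 ± 0.04, and within every line the CSC samples were above the DMSO samples for both. HMOX1 was low, with a CSC median of 5.94 CPM, and its groups separated in only 3 lines.

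Upstream windows were also read for the antioxidant genes, because NRF2 sites are known in this family. The element searched was TGACNNNGC on both strands, which stood in 13.3% of all windows, and 5 of the 13 genes with an entry held it in a window: GPX2, EPHX1, TXNRD1, GCLM and CBR1. Upstream of the start neither FTL (chr19:48965059-48965308, plus strand) nor OSGIN1 (chr16:83952990-83953239, plus strand) held it, and both held the AhR core, marked in capitals as before. NQO1 (chr16:69726561-69726810, minus strand) held neither upstream, and is shown for contrast with the others.
FTL: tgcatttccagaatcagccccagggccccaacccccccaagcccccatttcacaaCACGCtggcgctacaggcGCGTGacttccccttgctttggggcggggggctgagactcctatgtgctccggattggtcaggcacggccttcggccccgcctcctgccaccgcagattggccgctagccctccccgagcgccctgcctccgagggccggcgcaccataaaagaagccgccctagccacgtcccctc
OSGIN1: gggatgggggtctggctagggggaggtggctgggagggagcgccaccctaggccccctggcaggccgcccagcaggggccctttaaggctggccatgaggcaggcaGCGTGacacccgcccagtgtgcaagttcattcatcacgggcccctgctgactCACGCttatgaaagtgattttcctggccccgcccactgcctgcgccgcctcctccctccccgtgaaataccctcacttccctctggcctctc
NQO1: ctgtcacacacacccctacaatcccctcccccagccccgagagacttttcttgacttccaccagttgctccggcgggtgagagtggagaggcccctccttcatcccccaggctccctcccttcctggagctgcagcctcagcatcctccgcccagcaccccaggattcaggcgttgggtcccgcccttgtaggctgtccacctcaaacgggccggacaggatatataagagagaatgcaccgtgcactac

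NFE2L2 mRNA, which encodes NRF2, was slightly lower with CSC (-0.22 ± 0.04), and this call was lost with the GC correction (-0.08, adjusted p = 0.08). Of the 9 genes of NRF2 and its partners 5 were higher and 2 lower. The 3 small MAF genes, with which NRF2 dimerizes, were all higher: MAFF by 1.37 ± 0.14, MAFG by 0.96 ± 0.07 with no overlap between 42.0 CPM (26.4 to 58.6) and 81.1 CPM (61.4 to 106), and MAFK by 0.68. SQSTM1, the autophagy receptor that sequesters KEAP1, rose by 0.99 ± 0.04, and KEAP1 was at 0.34 ± 0.06 without and -0.06 with the GC correction.

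Enzymes that supply or use NADPH and those that conjugate electrophiles rose less. Of 6 NADPH-producing enzymes 5 were higher, with TKT and TALDO1 of the pentose phosphate pathway at 0.57 and 0.50, and IDH1 was lower at -0.13. Of 7 aldo-keto reductases 6 were higher, with a median of 0.66 and AKR1C1 at 2.05 ± 0.25, although AKR1C genes are near-identical and were read at 1.01 to 16.5 CPM at most with CSC in the case of AKR1C1. Aldehyde dehydrogenases were mixed, with 4 of 9 higher and 2 lower, ALDH1A3 at 1.10 ± 0.05 following ALDH3A1. Glutathione transferases and other phase II enzymes had 8 of 15 higher and none lower at a median of 0.40, which fell to 0.16 with 6 higher and 1 lower after the GC correction. Of 5 metallothioneins, which bind zinc and copper, 4 were higher, MT2A by 1.06 ± 0.04 from a median of 674 to 1349 CPM, and the metallothionein copies are similar enough that reads may be shared.

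**Figure D2:**
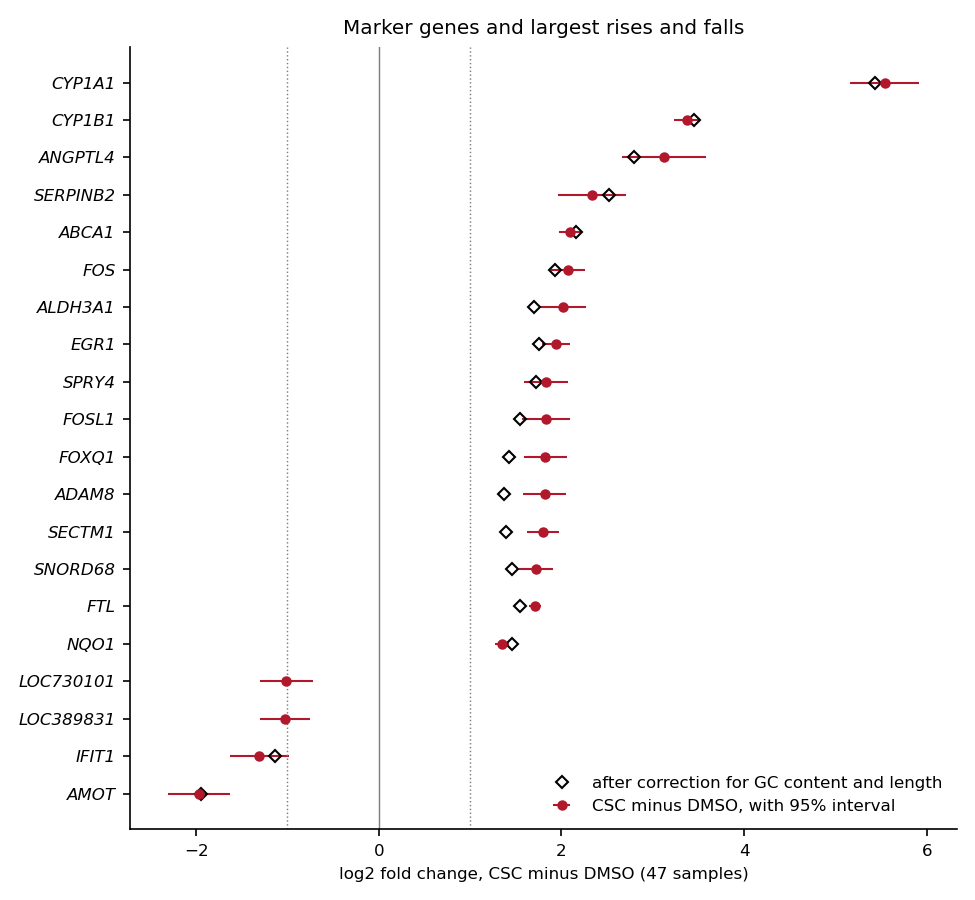
Log2 fold change of CSC against DMSO with its 95% confidence interval for the marker genes, the 15 largest rises and 4 of the 5 falls among genes that averaged 10 counts or more (filled points), and after correction for GC content and exon length (open diamonds). Corrected values lie within 0.5 of the uncorrected ones for every gene drawn that has a known GC content, from CYP1A1 at 5.54 to AMOT at -1.97.

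Early growth response and AP-1 genes, which growth factor signalling through ERK switches on rapidly, moved in 1 direction. All 16 that were tested were higher, against 27.2% of all genes, with a median of 1.24. Of these 11 rose over 2-fold, against 1.73%. All 16 were also higher after the GC correction, against 18.1%, at a median of 1.04. FOS was at 6.73 to 21.0 CPM with DMSO, with a median of 15.1, and at 28.3 to 89.8 CPM with CSC, with a median of 60.7. The groups did not overlap, and the log2 fold change was 2.07 ± 0.10 (adjusted p = 1.5e-35). EGR1, a zinc finger factor, was at 22.4 to 247 CPM with DMSO and 157 to 550 CPM with CSC, with medians of 110 and 450, and rose by 1.94 ± 0.08. FOSL1, the Fos-related subunit of AP-1, went from a median of 9.28 CPM (1.75 to 30.7) to 41.3 CPM (10.6 to 90.6), a change of 1.83 ± 0.13. For both the ranges met across lines but not within any of the 8.

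The feedback inhibitors of the same pathway rose with its targets. The Sprouty gene SPRY4 was at a median of 5.89 CPM with DMSO and 22.2 CPM with CSC (1.83 ± 0.12). The MAP kinase phosphatases DUSP1, DUSP5 and DUSP6 had log2 fold changes of 1.501 ± 0.04, 1.39 ± 0.12 and 1.27 ± 0.11. JUNB, at 39.9 to 90.8 CPM with DMSO and 92.4 to 207 CPM with CSC, rose by 1.24 ± 0.05 with no overlap, and MYC by 1.18 ± 0.06. KLF6 was the smallest of the list at 0.46 ± 0.06.

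Of 7 ligand genes of the EGF receptor family, which lies upstream of this pathway, 5 were higher and 2 lower. Among all genes 27.2% were higher and 28.4% lower. AREG (2.44 ± 0.19), EPGN (1.92 ± 0.19), EREG (1.15 ± 0.07), HBEGF (0.81 ± 0.13) and TGFA (0.51 ± 0.06) were higher, and BTC (-0.59 ± 0.26) and NRG1, which binds ERBB3 and ERBB4 and not the EGF receptor itself (-0.45 ± 0.07), were lower. AREG was at 0 to 10.03 CPM with DMSO and 7.26 to 34.8 CPM with CSC. The groups overlapped, but within each line all CSC samples were above all DMSO samples. The NRG1 call rested on the line that overexpresses it: the fitted change was above 0 in 5 of 8 lines, and without the NRG1 line it was -0.24 (adjusted p = 0.478). The fall of BTC was lost with the GC correction (-0.33, adjusted p = 0.33), and it passed in only 24 of the 47 fits that leave out 1 sample.

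Cytokine genes of the IL-1 and NF-kB group had 7 of 13 higher, against 27.2% of all genes, and none lower, at a median of 0.49. IL1A, an epithelial alarmin, was at 9.61 to 41.2 CPM with DMSO and 27.2 to 121 CPM with CSC, and rose by 1.63 ± 0.08. IL1B rose by 1.40 ± 0.20, and CSF3, CCL20 and LIF by 2.04 ± 0.23, 1.48 ± 0.26 and 1.40 ± 0.25 from DMSO medians of 0.764, 1.58 and 0.809 CPM, where 1 read is about 1 CPM. The NF-kB feedback genes NFKBIA and TNFAIP3 did not pass, at 0.11 and -0.04.

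Other genes among the 15 largest rises belonged to none of these lists. ANGPTL4, a secreted inhibitor of lipoprotein lipase, was at 0 to 7.76 CPM with DMSO and 1.01 to 94.5 CPM with CSC, with medians of 2.28 and 17.0. Its log2 fold change was 3.12 ± 0.23, and CSC and DMSO samples were separate in 6 of 8 lines. ABCA1, which exports cholesterol to apolipoproteins, was at 7.95 to 76.2 CPM with DMSO and 51.6 to 227 CPM with CSC, with medians of 28.7 and 126, and rose by 2.09 ± 0.06 (adjusted p = 1.2e-50). In each line all its CSC samples were above all DMSO samples. SERPINB2, an inhibitor of plasminogen activators, rose by 2.34 ± 0.19 from a median of 2.83 to 19.4 CPM. FOXQ1, a forkhead factor, rose by 1.82 ± 0.12, the metalloprotease ADAM8 by 1.81 ± 0.12 and the secreted and membrane protein SECTM1 by 1.80 ± 0.09, the last from 5.84 to 35.3 CPM with DMSO to 36.9 to 88.6 CPM with CSC without overlap.

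Small nucleolar RNAs, which guide the modification of ribosomal and spliceosomal RNA and mostly sit in introns of host genes, were raised in number: of 222 tested, taken by their symbols, 110 were higher, 3 lower and 109 did not pass, with 25 over 2-fold and a median of 0.46. After the GC correction, which could be made for 175 of them, 56 were higher and 4 lower at a median of 0.25. Among all genes 27.2% were higher without the correction and 18.1% with it. Where a symbol had several annotated records the longest was used. The GC content and length, and so the corrected values, may therefore be those of another copy for some of these RNAs. SNORD68 was at 7.07 to 36.0 CPM with DMSO and 39.4 to 95.6 CPM with CSC, without overlap, and rose by 1.72 ± 0.09. Summed, small nucleolar RNAs took 0.391% ± 0.039 of assigned reads with CSC (SD, n = 23) and 0.251% ± 0.025 with DMSO (SD, n = 24), and the groups did not overlap (two-sided permutation test, p = 1e-05, the smallest that 100000 permutations can give). RMRP, the RNA of the ribonuclease that processes mitochondrial and ribosomal RNA, rose by 1.39 ± 0.04 and made up 0.270% ± 0.043 of reads with CSC and 0.0991% ± 0.015 with DMSO, also without overlap (permutation test, p = 1e-05). RNR2, the large mitochondrial ribosomal RNA, moved the other way in the same libraries, from 0.652% ± 0.080 of reads with DMSO to 0.503% ± 0.055 with CSC, and was lower in 8 of 8 lines (permutation test, p = 1e-05). The part of such shifts in library composition in these results was not tested. Total assigned reads were 970900 on average with CSC and 1072000 with DMSO (permutation p = 0.24).

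**Figure D3:**
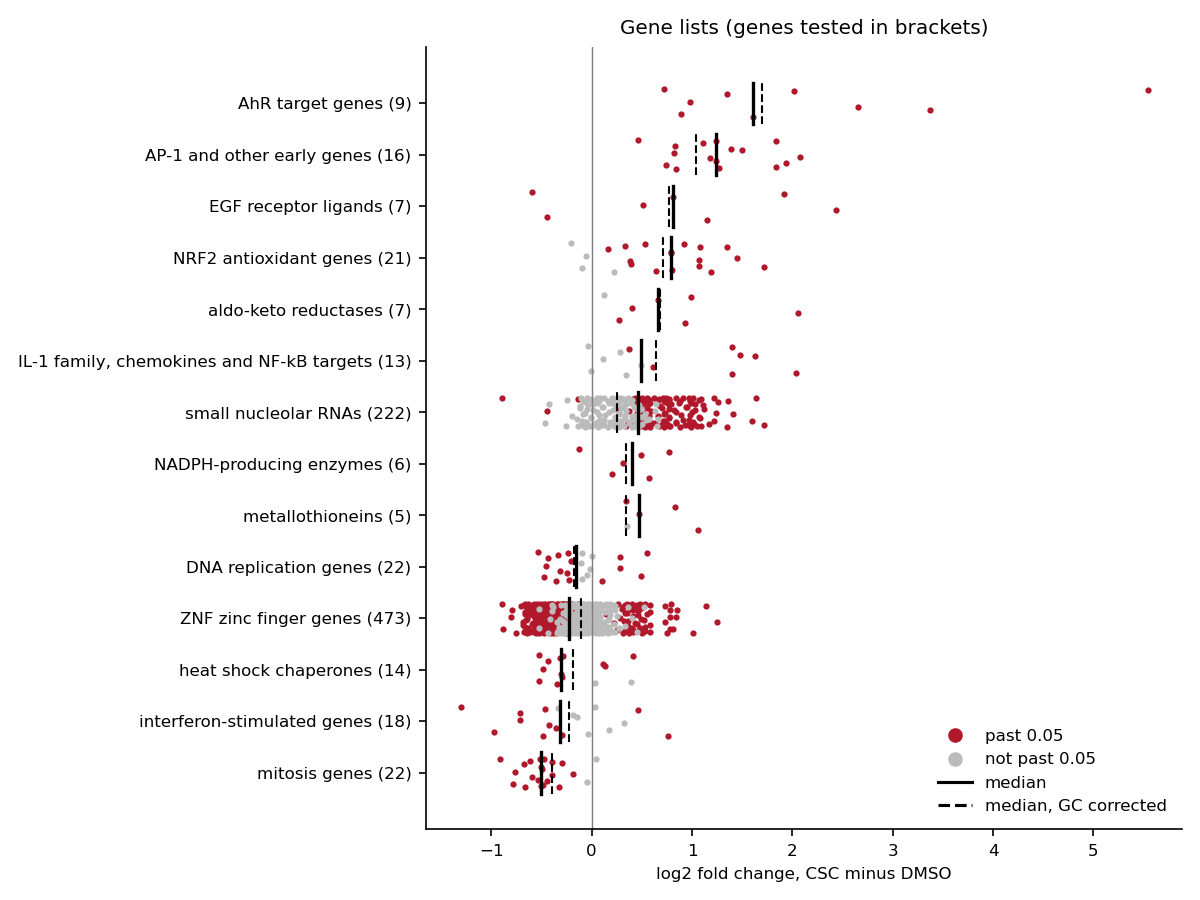
Log2 fold change of every tested gene (dots) in 14 gene lists, coloured red where the adjusted p is under 0.05 and grey where it is not, with the list median (solid line) and the median after GC correction (dashed line). The AP-1 and early gene list lies wholly above 0 at a median of 1.24, and the mitosis list, at -0.50, has 20 of 22 genes lower.

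The falls were smaller. AMOT, which binds the Hippo effector YAP at cell junctions, was at 0 to 64.1 CPM with DMSO, with a median of 11.8, and at 0 to 15.7 CPM with CSC, with a median of 3.36. The samples were separate in 7 of 8 lines, and the log2 fold change was -1.97 ± 0.17 (adjusted p = 7.4e-18). Of the other 6 genes of the Hippo list CYR61, CTGF and AMOTL2 were higher at 0.57, 0.56 and 0.10, and AXL, LATS2 and AMOTL1 did not pass, at a list median of 0.04. After the GC correction CYR61 and CTGF were higher at 0.58 and 0.50, AMOTL2 and AXL were lower with AMOT, both at -0.14, and the median was -0.10. The transcripts LOC389831 and LOC730101 fell by 1.03 and 1.01.

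Of 18 interferon-stimulated genes 9 were lower, 2 were higher and 7 did not pass, against 28.4% and 27.2% among all genes. The antiviral IFIT genes led: IFIT1 was at 1.92 to 47.2 CPM with DMSO and 0 to 25.3 CPM with CSC, with medians of 14.6 and 5.06, and fell by 1.31 on the log2 scale (SE 0.16). The ranges overlapped, although in 7 lines all CSC samples were below all DMSO samples. IFIT2 had -0.97 ± 0.11 and IFIT3 -0.71 ± 0.10. IRF7 and ISG15 were higher, at 0.76 and 0.47, and neither call held with the GC correction, after which 6 genes were lower and none higher.

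Mitosis genes were lower in 20 of 22 cases, against 28.4% of all genes, and in none higher, at a median of -0.50. After the GC correction all 22 were lower, against 16.8% of all genes, at -0.40. CENPE, a kinetochore motor, was at 326 to 858 CPM with DMSO and 191 to 468 CPM with CSC, with medians of 574 and 310, a change of -0.91 ± 0.04. The topoisomerase TOP2A (-0.68 ± 0.02), the proliferation antigen MKI67 (-0.48 ± 0.02) and the kinase CDK1 (-0.61 ± 0.04) were likewise lower in every CSC sample than in any DMSO sample of the same line. PLK1 (0.04) and AURKB (-0.05) did not pass. Replication genes were weaker, with 11 of 22 lower and 5 higher at a median of -0.16; E2F1, CDT1, CCNE1, MCM5 and MCM2 were those above, and after the GC correction 15 were lower and 1 higher. Beside these, the p53 targets CDKN1A, the inhibitor of cyclin-dependent kinases, and GDF15, a stress cytokine, rose by 0.97 ± 0.05 and 1.42 ± 0.19, while the list as a whole was split, with 10 of 20 higher and 7 lower (5 and 1 after the GC correction). MDM2, which p53 induces and which degrades it, was at -0.04 ± 0.04.

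Protein folding genes were lower more often than higher. Of 14 heat shock chaperones 9 were lower and 3 higher, at a median of -0.30, with HSPA8 from a median of 1380 to 1162 CPM (-0.31 ± 0.03) and the collagen chaperone SERPINH1 higher by 0.41. Of 17 genes of the unfolded protein response of the endoplasmic reticulum 9 were lower and 2 higher, at a median of -0.07. HSPA5 was at -0.20 ± 0.02 and SDF2L1 at 0.88 ± 0.12. Among all genes 28.4% were lower and 27.2% higher. After the GC correction 10 heat shock chaperones were lower and 1 higher. Of the unfolded protein response genes 7 were then lower and 4 higher. Among all genes with a known GC content 16.8% were lower and 18.1% higher after that correction. Genes of the ATF4 response to amino acid shortage had 10 of 17 higher and 2 lower, with TRIB3 at 0.85 ± 0.06 and DDIT4 at 0.80 ± 0.03; ATF4 itself was at 0.08, and after the GC correction 6 were higher and the list median went from 0.33 to 0.10.

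Metabolic genes followed no single direction. Of 18 glycolysis and hypoxia genes 9 were higher and 2 lower, with VEGFA at 1.05 ± 0.06, NDRG1 at 0.91 ± 0.05 and the glucose transporter SLC2A1 at 0.69 ± 0.05. Of 21 genes of cholesterol and fatty acid synthesis 8 were higher and 9 lower: fatty acid synthase FASN went from a median of 958 to 1829 CPM (0.95 ± 0.03), while the sterol enzymes HMGCS1 (-0.44 ± 0.04) and SQLE (-0.32) were lower. The median of this list was -0.01 and turned to +0.03 with total counts alone. After the GC correction the median was -0.10, with 5 of its genes higher and 12 lower. Of the glycolysis and hypoxia genes 8 were then higher and none lower.

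Epithelial genes changed modestly. Among 14 basal adhesion and keratin genes 6 were higher and 7 lower, with the integrins ITGA3 and ITGB4 at 0.55 and 0.37 and the basal keratins KRT14, KRT15 and KRT5 at -0.74, -0.61 and -0.36; ITGB4 was at -0.06 after the GC correction. Of 9 squamous genes CNFN and S100A9 were higher and KLK7 lower, and the list median of 0.21 turned to -0.09 with the correction. Of 9 mesenchymal genes 3 were higher, TGFBI and SNAI2 at 0.65 and 0.63, and FN1 and VIM lower (-0.14 and -0.20), with a median of -0.08 that turned to 0.03. Of the 7 basal epithelial markers used to check the cells, KRT18 was higher and 4 were lower, and of the markers of other cells CCDC39 was at -0.79, COL1A1 at 0.91, DCN at 0.54 (not past) and CD14 at 0.68, the last not past after the correction.

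Ribosomal protein and respiratory chain genes were split close to 0, while proteasome subunits were mostly higher after the GC correction. ZNF genes were lower more often than higher. Among all genes 27.2% were higher and 28.4% lower, and 18.1% and 16.8% after the correction. Of 77 cytosolic ribosomal protein genes 27 were higher and 25 lower, of 75 respiratory chain genes 22 and 23, and of 35 proteasome subunits 15 and 11, the medians of the first 2 being -0.01 and -0.02 and turning to +0.02 and +0.03 with the GC correction, and the last rising to 20 and 2 with it. Of 62 clustered histone genes 31 were higher and 11 lower, and 21 and 22 after the correction. Of 25 collagen chains 4 were higher and 7 lower, with a median of 0.03 that turned to -0.13. The 473 ZNF zinc finger genes, which have a median GC content of 44%, were lower in 222 cases and higher in 59 at a median of -0.22, and in 100 and 20 at -0.11 after the correction.

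Fold changes with CSC followed the base composition of the genes. Over the 13987 genes with a known GC content of their exons (96.5% of those tested), the log2 fold change correlated with GC content across genes with Spearman's rho = 0.69, a description only, since genes of the same samples are not independent. In the fifth of genes with the lowest GC content (30.1 to 40.6%) the median log2 fold change was -0.27, with 67.8% of genes lower and 2.72% higher. In the fifth with the highest (57.3 to 86.4%) it was 0.43, with 1.47% lower and 68.9% higher. The median thus rose through the 5 groups, from -0.27 to -0.18, -0.02, 0.19 and 0.43, a difference of 0.70 between the outer groups. Exon length had a rho of -0.19.

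The same was seen sample by sample. The slope of log2 CPM on GC content, relative to the mean of the 47 samples, was 0.135 ± 0.050 per 10 percentage points with CSC (SD, n = 23; 0.0455 to 0.268) and -0.129 ± 0.066 with DMSO (SD, n = 24; -0.307 to -0.0123). No CSC sample had a slope as low as any DMSO sample, and the difference of 0.263 passed a two-sided permutation test (p = 1e-05, the smallest possible). Within each line the difference between outer GC groups was 0.518 in NRF2 cells, the smallest, and 0.894 in HCRED cells, the largest. BaP and NNK, compared with the same DMSO samples, had differences of 0.649 and 0.682, and between CSC and BaP or NNK directly the difference was 0.0675 and 0.0411. The base composition of the libraries and the treatment cannot be told apart here.

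**Figure D4:**
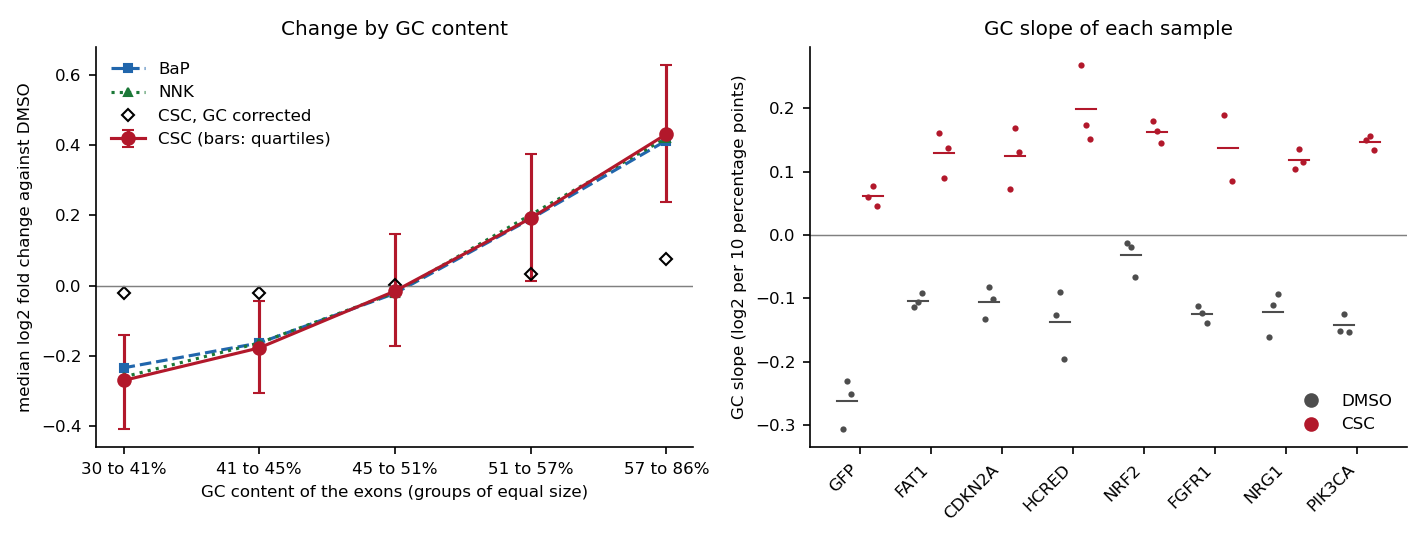
Left, median log2 fold change in 5 groups of genes ordered by GC content, for CSC (with quartiles as bars), BaP, NNK and CSC after GC correction. Right, slope of log2 CPM on GC content in each sample by line, per 10 percentage points. The CSC medians climb from -0.27 to 0.43 and flatten with the correction, and every CSC slope is above 0 where every DMSO slope is below.

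Removing each sample's loess trend with GC content and exon length before the test left 4879 genes past the threshold (34.9%). Of these 2536 were higher (18.1%) and 2343 lower (16.8%). Over 2-fold, 117 were higher (0.836%) and 23 lower (0.164%). Of the genes over 2-fold, 104 risers and 13 fallers were so both ways. There were 3728 genes past the threshold with the same sign both ways, and 197 past it both ways whose sign turned. The correction also removes any change that goes with GC content for another reason. CYP1A1 was at 5.43, CYP1B1 at 3.46, NQO1 at 1.46 and FTL at 1.55 after it, SECTM1 went from 1.80 to 1.39, RMRP from 1.39 to 0.90 and SLC7A5 from 0.98 to 0.64.

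Lines differed in how far they responded. The interaction of CSC with line passed in 138 genes (0.952%), 135 of them averaging 10 counts or more, and with the GC correction in 82 (0.586%), 77 of them shared. Of the 138, 65 had the same sign in 8 of 8 lines, and 13 were among the genes over 2-fold. Taken with its sign, the lowest log2 fold change of these genes was most often that of the CDKN2A knockout (52 genes) or of NRF2 cells (34), and the highest most often that of PIK3CA cells (34). Within single lines the genes past the threshold were fewest in NRF2 cells, with 1093 (7.54%), and numbered 1502 in CDKN2A (10.4%), 1799 in NRG1 (12.4%), 1805 in FGFR1 (12.5%) and 1819 in FAT1 cells (12.5%). They were more in PIK3CA cells, with 3156 (21.8%), and in the control lines GFP and HCRED, with 3459 (23.9%) and 3613 (24.9%). The contrasts share each gene's estimate of spread over all lines, and with so few samples a line these counts are no test of a difference between lines. With the GC correction the order changed, with the most genes in PIK3CA cells (1118) and the fewest in FGFR1 cells (528).

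CYP1B1 rose most in FAT1 knockout cells, from 54.5 ± 9.5 to 1159 ± 25 CPM (SD, n = 3 each; log2 fold change 4.40 ± 0.14), and least in PIK3CA cells, from 53.2 ± 11.4 to 302 ± 38 CPM (2.57 ± 0.15). These lines had nearly the same DMSO level and differed in their CSC level. CYP1A1 had the same extremes in level, with 740 ± 61 CPM in FAT1 and 134 ± 12 CPM in PIK3CA cells with CSC. Its fitted log2 fold changes ran from 4.14 in CDKN2A to 8.49 in HCRED cells, where the DMSO samples averaged 0.576 CPM and the fold is poorly fixed. EGR1 rose by 2.81 ± 0.19 in FAT1 cells and 1.17 ± 0.15 in CDKN2A cells, and ANGPTL4, at a CSC level of 82.2 ± 14.6 CPM in PIK3CA cells and 4.48 ± 3.39 CPM in GFP cells, had 3.87 ± 0.42 and 1.16 ± 0.77 there. FTL rose in every line by 1.42 (FAT1) to 1.98 (PIK3CA).

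Other genes named for the smallest p of the interaction also differed in size or sign between lines. SLC7A11, the cystine importer that feeds glutathione synthesis, rose from 120 ± 27 to 277 ± 31 CPM in NRF2 cells (1.22 ± 0.14) and went from 342 ± 29 to 313 ± 17 CPM in GFP cells (-0.11 ± 0.09, not past). SLC7A5 rose in all lines, by 0.70 ± 0.04 in NRF2 and 1.30 ± 0.04 in FAT1 cells. KRT14 fell from 663 ± 57 to 265 ± 23 CPM in NRF2 cells (-1.33 ± 0.09), and was at 252 ± 14 and 242 ± 9 CPM in PIK3CA cells (-0.06 ± 0.10). KRT5 followed the same order, at -0.67 ± 0.04 and -0.19 ± 0.04. AHNAK, a giant scaffold protein, was lower in all lines, from -0.55 ± 0.04 in CDKN2A to -0.14 ± 0.03 in PIK3CA cells. KRT17, FAT2 and SCD changed sign between lines: KRT17 was at 0.57 in GFP and PIK3CA cells and -0.11 in NRF2 cells, FAT2 at 0.43 in HCRED and -0.35 in NRF2 cells, and the desaturase SCD at 0.12 in FAT1 and -0.29 in NRG1 cells. All 3 NRF2 samples with CSC are among those with NRG1 above 50 CPM, and without them and the other 4 such samples, and without the rest of the NRF2 line, the interaction passed in 86 genes.

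**Figure D5:**
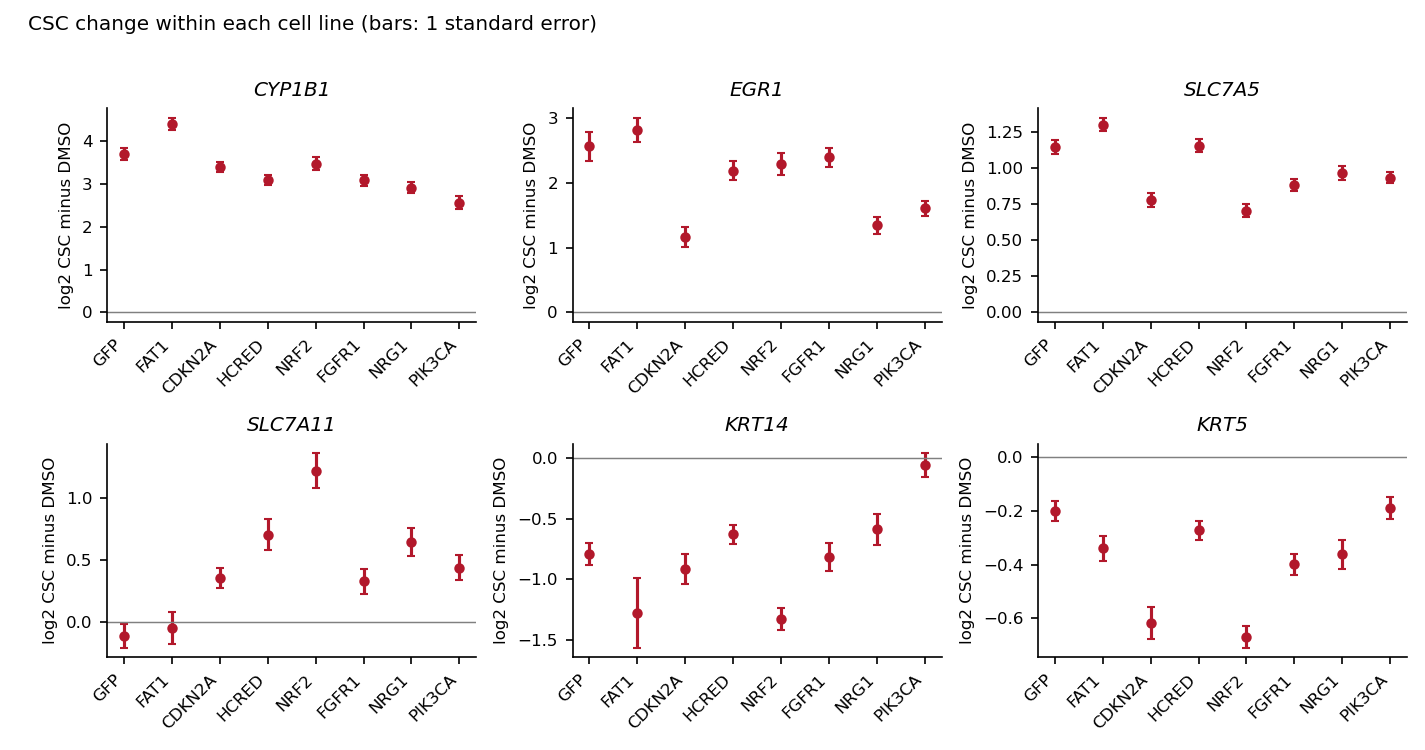
Log2 fold change of CSC against DMSO within each line, with 1 standard error, for CYP1B1, EGR1, SLC7A5, SLC7A11, KRT14 and KRT5. CYP1B1 ranges from 2.57 in PIK3CA to 4.40 in FAT1 cells, SLC7A11 stands highest in NRF2 cells at 1.22, and KRT14 lowest in NRF2 cells at -1.33.

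The other 2 chemicals set the CSC values in context. CSC, BaP and NNK share their DMSO samples, so that only the direct contrasts of CSC with BaP and NNK, from a fit of all 95 samples, are tests of a difference; the doses are in different units and not matched. CSC and BaP differed in 2359 genes (16.3%) and CSC and NNK in 3392 (23.4%), with 26 and 99 genes over 2-fold higher with CSC (0.179% and 0.683%) and 6 and 15 lower (0.0414% and 0.103%). The share of all genes higher alone, or lower alone, is thus at most 16.3% against BaP and 23.4% against NNK. Counts of list members in the paragraphs that follow are to be read beside these shares.

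CYP1A1 and CYP1B1 were higher with CSC than NNK, and did not pass a difference from BaP. The log2 fold changes against DMSO were 5.62 for CYP1A1 with BaP and 3.05 with NNK, and 3.23 and 1.62 for CYP1B1. The direct difference of CSC from BaP was 0.03 for CYP1A1 (95% interval -0.48 to 0.54; adjusted p = 0.957) and 0.14 for CYP1B1 (95% interval -0.04 to 0.31; adjusted p = 0.327), and that from NNK 2.59 ± 0.26 and 1.75 ± 0.10. Of the 9 AhR targets 2 (NQO1 and SLC7A5) were higher with CSC than BaP and 8 higher than with NNK, the exception being CYP2S1 (0.30, adjusted p = 0.17), and of the 21 antioxidant genes 7 and 17, with 1 and none lower. FTL was 1.15 higher with CSC than NNK, and NQO1 0.32 and 0.97 higher than with BaP and NNK.

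The medians of the early genes and of the mitosis genes had the same sign with all 3 chemicals. Against DMSO, FOS was at 2.005 with BaP and 2.33 with NNK, and EGR1 at 1.99 and 2.33, and EGR1 was lower with CSC than NNK (-0.37, adjusted p = 4.8e-05). The median of the 16 early genes was 0.83 with BaP and 0.69 with NNK; 8 were higher with CSC than BaP and none lower, and 10 were higher and 1 lower with CSC than NNK. The median of the 22 mitosis genes was -0.42 with BaP and -0.32 with NNK, and 8 were lower with CSC than BaP and 16 than NNK, with none higher.

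ABCA1 went the opposite way with the other chemicals: it was at -1.69 with BaP and -1.12 with NNK against DMSO, and CSC exceeded BaP by 3.78 ± 0.14 and NNK by 3.21 ± 0.12. ABCG1, a related sterol exporter, exceeded them by 2.15 ± 0.11 and 1.76 ± 0.10, and SREBF1, the factor behind fatty acid synthesis, by 1.02 ± 0.05 and 0.83 ± 0.05; these 2 genes were named after their values were seen. Against DMSO, IFIT1 was at -0.34 with BaP, and IFIT2 and IFIT3 at 0.30 and 0.26. The direct difference of CSC from BaP was -0.95, -1.29 and -0.98 for IFIT1, IFIT2 and IFIT3, and 11 of the 18 interferon-stimulated genes were lower with CSC than BaP and none higher. Cholesterol and fatty acid genes were lower with CSC than NNK in 19 of 21 cases and higher in 1. Small nucleolar RNAs were higher with CSC than NNK in 137 of 222 cases and than BaP in 46, and lower in none of either; SNORD68 was 2.09 above NNK and 1.09 above BaP. Of the 44 genes averaging 10 counts or more that were over 2-fold higher with CSC than NNK, 29 were small nucleolar RNAs.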

How the data were processed

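Data were SFL RNA-seq of AALE cells, single-end 75-bp reads. Per the labels and the study's methods, the authors trimmed reads with cutadapt 1.12, checked them with FastQC 0.11.5, aligned them to hg19 with STAR 2.5.2b and counted them per gene with featureCounts; the deposited values are raw read counts per gene symbol. No molecular identifiers are mentioned and the strand setting is not given in the sources used here, so overlapping and antisense genes, and near-identical copies, are uncertain. Confidence intervals given here are those of the limma-voom fits, and include the spread between samples.

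From these counts, CSC was compared with DMSO by limma-voom (limma 3.58.1, edgeR 4.0.16, R 4.3.3) with TMM factors, genotype as covariate and Benjamini-Hochberg adjustment over all 14497 genes with a mean count above 1. The interaction was a moderated F test, and within-line changes were contrasts of the same model. A fit of all 95 samples gave CSC against BaP and NNK. The 47 libraries held 485031 to 2116383 assigned reads, with a median of 1005033, so that 1 CPM is about 1 read. Gene positions, GC content and length came from GENCODE v44 on GRCh37, which matched 25085 of 27978 symbols; promoters came from RefSeq. Alternatives were edgeR and DESeq2 tests, other scalings, filters and covariates, a GC content and length correction, replicate blocks, and leaving out each sample or line. Scripts were tested on simulated data.

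Genes named are the markers CYP1A1, CYP1B1 and NQO1, up to 15 rises and 15 falls over 2-fold with a mean count of at least 10, list members, up to 10 interaction genes and the perturbed genes. The lists and members were chosen with earlier results of these data known. Same-numbered CSC and DMSO samples of a line deviated together weakly (correlation -0.01 to 0.05 in 23 pairs, none over 0.1). The median was 0.023, against -0.011 for differently numbered pairs. Of the 23 CSC samples 15 correlated best with the DMSO sample of their own number, so a pairing by number is possible. The main fit did not take the numbers to pair samples, and fits with a replicate block are given further on. A few named genes are not reported here.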

Additional observations from a re-analysis of the deposited data

Results flagged for a closer look

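In 13 of the named genes the change with CSC differed between lines by the moderated F test of the interaction in limma-voom, adjusted over all genes. Among genes also over 2-fold across lines, the adjusted p was 9.97e-12 for CYP1B1, 7.92e-08 for EGR1, 4.69e-05 for FTL, 0.00457 for CYP1A1 and 0.00807 for ANGPTL4, and each of these was higher with CSC in 8 of 8 lines. Among the genes named for the interaction itself it was 1.79e-11 for AHNAK, 2.96e-11 for SLC7A5, 6.44e-11 for SLC7A11, 7.06e-08 for KRT17, 7.06e-08 for KRT5, 7.92e-08 for SCD, 8.79e-08 for FAT2 and 1.9e-07 for KRT14. AHNAK, KRT5 and KRT14 were lower and SLC7A5 higher in 8 of 8 lines, so that the lines differed in size, while SLC7A11, KRT17, SCD and FAT2 had both signs. The change over all lines of KRT17 and FAT2 (0.23 and 0.10) turned sign with the GC correction.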

How the results depend on the processing

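Counts of genes past the threshold held within 1.5 times under edgeR, DESeq2, other scalings, no genotype term, the filters on low counts and without any single line, with the exceptions given here. The number past the threshold (8061) was 4918 over the 10000 genes of largest median absolute deviation, 4879 with the GC correction and 4766 with that correction and the replicate block; those higher were 2536 and 2500 with the last 2, and those lower 1890, 2343 and 2266. Genes over 2-fold higher (251) were 116 with a minimum mean count of 10, 117 with the GC correction and 108 with correction and block. Genes over 2-fold lower (25) were 57 by edgeR, 56 by DESeq2, 4 with a minimum mean count of 10 and 38 without the CDKN2A line. The interaction (138) fell to 60 by the DESeq2 likelihood ratio test, 82 with the GC correction and 86 without the samples with NRG1 above 50 CPM, an alternative chosen after seeing the data. The cause was not tested, other than that the filters leave fewer genes to test.

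The difference between outer GC groups (0.703) was 0.859 in GFP, 0.894 in HCRED and 0.518 in NRF2 cells alone. Within lines, genes past the threshold with the GC correction, added after seeing the data, were 595 in CDKN2A, 702 in FAT1, 528 in FGFR1, 909 in GFP, 1007 in HCRED, 543 in NRF2, 686 in NRG1 and 1118 in PIK3CA cells. With the GC correction and with correction and block, KRT17 reversed to -0.0606 and -0.0385, FAT2 to -0.0461 and -0.0385, and the PIK3CA gene to 0.140 and 0.146.

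Leaving out each of the 47 samples gave 7833 to 8046 genes past the threshold, 3842 to 4060 higher, 3824 to 4099 lower, 248 to 279 and 19 to 30 over 2-fold, a GC difference of 0.685 to 0.718 and a GC slope difference of 0.256 to 0.268. The interaction ranged from 84 to 153, with 84 without replicate 3 of CDKN2A with CSC. The replicate block within lines gave 7894 genes past the threshold, a block of the 3 numbers 8025 and the interaction with a block 141; 15 of 23 CSC samples correlated best with the DMSO sample of their own number. Among the genes named from the lists or by the rule, leaving out 1 sample ended the call of BTC in 23 fits and of AMOTL2 in 8. That of KLK7 ended in 4 (without replicate 1 of GFP with CSC, replicates 1 and 3 of GFP with DMSO, or replicate 1 of HCRED with DMSO). CD14 lost its call in 1 (without replicate 3 of FGFR1 with CSC, 0.612, limma-voom adjusted p = 0.0517). FAT2 lost its call in 1 (without replicate 1 of HCRED with DMSO, 0.0785, limma-voom adjusted p = 0.0510). A call was gained by ATF4 in 16 fits and by NFKBIA and DCN in 1 each. At this depth, genes near 1 CPM rest on single reads.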
